A study of Mus musculus with 8 samples.

Results

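The transcripts described here are 8 genes that detect foreign or misplaced nucleic acids inside the cell or pass the signal on: Ddx58, Ifih1, Dhx58, Zbp1, Nlrx1, Mavs, Tmem173 and Tlr3. They form a named list that was drawn up with earlier results of these data known, so their counts are set beside those of all genes as a description. All 8 are among the 22609 gene symbols of the deposited count tables. The RNA-seq data came from the iBmp2fx/fx cells, an immortalized mouse dental papilla line with floxed Bmp2 alleles, and the iBmp2ko/ko cells, the corresponding line with Bmp2 knocked out. Dental papilla is the tooth mesenchyme that gives rise to odontoblasts. Each genotype gave 1 total RNA library per culture time, at 6, 24, 48 and 72 h, and the labels name no treatment beside the culture. Each genotype is 1 cell line, so the Bmp2 deletion and other differences between the lines cannot be told apart. The comparison of genotypes used the 6 libraries of 6, 48 and 72 h, the harvest times that the methods of the study name. The 24 h libraries are given beside it. The iBmp2ko/ko library of 24 h, which is unlike the other iBmp2ko/ko libraries, was also set apart by rule, so the choice may depend on the data. After adjustment for the number of genes, 2 of the 8 genes were called higher over the 6 libraries, against 0.899% of all genes. Over all 8 libraries it was 0 of the 8 and 0 of all genes.

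In this sensing system, the RNA helicases encoded by Ddx58 (RIG-I) and Ifih1 (MDA5) bind double-stranded or 5′-triphosphate RNA in the cytosol, and Dhx58 (LGP2) is a related helicase without signaling domains that modulates them. Both signaling helicases act through Mavs, an adaptor on the mitochondrial outer membrane, whereas Nlrx1 is a mitochondrial NOD-like protein described as a regulator of that adaptor. Zbp1 binds left-handed nucleic acid and is linked to necroptosis, Tmem173 (STING) is the adaptor of cytosolic DNA sensing, and Tlr3 senses double-stranded RNA in endosomes rather than in the cytosol. Fibroblast-like cells commonly express these routes, and several of the sensors are themselves induced by type I interferon, which binds its receptor and acts on promoters through the interferon-stimulated response element (ISRE).

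Promoter sequences are shown for the members whose RefSeq window holds an ISRE or a gamma-activated site (GAS), the 2 promoter elements through which interferon signals are known to act. Windows from 250 bases before to 50 bases after an annotated start were at hand for Ddx58, Ifih1, Nlrx1, Mavs and Tlr3, from the RefSeq annotation of GRCm38.p6. The ISRE was searched as GAAANNGAAA on both strands (TTTCNNTTTC on the other strand), and 3.44% of 32851 such windows hold it. The GAS was searched as TTCNNNGAA, which reads alike on both strands, and 8.30% of the windows hold it. A match at these letters is a description and not a measured binding site. Capitals mark the motif, and the minus strand of the chromosome is shown in each case, 5′ to 3′.
Ddx58, chr4:40239814-40239883, bases -58 to 12 from the start, ISRE letters of the other strand: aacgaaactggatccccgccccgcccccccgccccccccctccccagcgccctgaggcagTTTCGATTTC
Ifih1, chr2:62646214-62646243, bases 13 to 42 from the start, ISRE: aaagtctggagaagagaatcGAAACAGAAA
Nlrx1, chr9:44268686-44268784, bases -185 to -87 from the first of its 2 annotated starts, GAS: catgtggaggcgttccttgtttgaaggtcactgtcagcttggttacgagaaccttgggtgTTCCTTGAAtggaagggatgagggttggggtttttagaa

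The ISRE letters of Ddx58 and Ifih1 thus lie just after the annotated start, at bases 3 to 12 and 33 to 42. No ISRE letters were found in the windows of Nlrx1, Mavs and Tlr3, and no GAS letters in those of Ddx58, Ifih1, Mavs and Tlr3.

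The libraries held 25890110 to 32415665 reads on genes, and 3 reads, the smallest level counted as detectable, correspond to 0.0925 to 0.116 CPM, the reads of a gene scaled to a common library total. Such floors cover counting error only. Bmp2 itself had 1 read in the iBmp2fx/fx library of 24 h and 0 in the 7 others, so it could not check the genotype labels. Of 15 markers of dental papilla and mesenchyme, 13 exceeded 1 CPM in at least 1 library, and their summed level was 7489 to 9584 CPM in the iBmp2fx/fx cells and 9822 to 14227 CPM in the iBmp2ko/ko cells over the 6 libraries. Lhx8 was at or below 1 read in every library. The 11 white blood cell markers summed to 26.5 to 44.7 CPM and 25.4 to 45.9 CPM in the 2 genotypes, most of it Cd14 (22.3 to 42.0 CPM over the 8 libraries). Cd68, at 2.12 to 12.2 CPM, and Csf1r, at 0.238 to 1.85 CPM, also exceeded 1 CPM in at least 1 library. Emr1 and Tyrobp were at 0 in all libraries, Ptprc had at most 2 reads, and no other marker of this list had more than 9 reads in a library. The part of these markers in the results was not tested. The library of 24 h labelled iBmp2ko/ko was the lowest of the iBmp2ko/ko libraries for 4 of the 8 genes, against 19.1% of all genes tested, and its values for the 8 genes are named separately. In bulk RNA, fewer cells of a type and less RNA per cell cannot be told apart.

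Over the 6 libraries, 5 of the 8 genes were called higher in the iBmp2ko/ko cells before adjustment for the number of genes, against 3.31% of all genes tested. Ddx58, at a log2 fold change of 0.88, was not called, and the adaptors Mavs and Tmem173 had log2 fold changes of at most 0.20. A gene was called at the unadjusted limit when its log2 fold change exceeded 1 in size with a p under 0.05, and at the adjusted limit when it was at least 1 in size and p, adjusted after Benjamini-Hochberg, did not exceed 0.05, both from edgeR's quasi-likelihood test over 13121 genes. All 8 members passed the filter on low counts. The 5 of the 8 that rose at the unadjusted limit were Ifih1, Dhx58, Zbp1, Nlrx1 and Tlr3. At the adjusted limit 2 of the 8 rose, Zbp1 and Nlrx1, against 0.899% of all genes. The median log2 fold change of the 8 genes was 1.63, beside 0.03 over all genes tested. The libraries of the genotypes did not overlap for 4 of the 8, Ifih1, Zbp1, Nlrx1 and Mavs, all higher in the iBmp2ko/ko cells, against 8.76% of all genes.

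**Figure D1:**
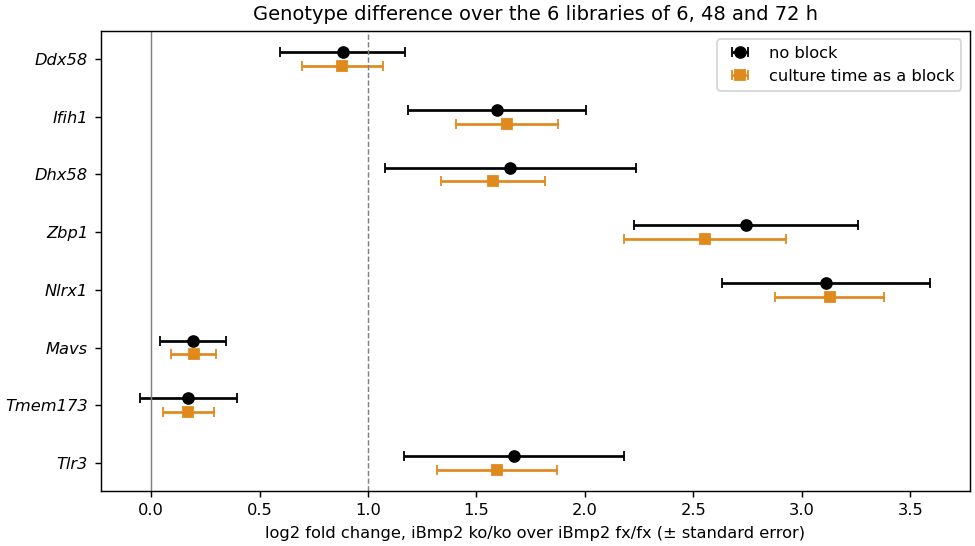
Log2 fold change of each sensor or adaptor in the iBmp2ko/ko cells over the iBmp2fx/fx cells (x axis), with the standard error of edgeR's quasi-likelihood fit, without a block (circles) and with culture time as a block (squares), over 3 libraries per genotype. The dashed line marks a log2 fold change of 1, which Ddx58, Mavs and Tmem173 do not reach.

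Since the deviations of the libraries went together by culture time, the same test was run with the culture time as a block. With this replicate block, 5 of the 8 members passed the adjusted limit, Ifih1, Dhx58, Zbp1, Nlrx1 and Tlr3, against 3.78% of all genes that were called higher. Their adjusted p in edgeR's quasi-likelihood test with the block was 0.00338 for Ifih1, 0.00431 for Dhx58, 0.00352 for Zbp1, 0.000385 for Nlrx1 and 0.00730 for Tlr3. For Ddx58 the blocked edgeR test gave an adjusted p of 0.0155, but its difference of 0.88 on the log2 scale was short of 1.

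Of the 3 RIG-I-like receptors, Ddx58 (mm9 chromosome 4, 40150806 to 40186861, minus strand) had the highest level per length in both genotypes, 28.5 and 52.4 RPKM (CPM per kilobase of exon). It had 271, 291, 163 and 168 CPM in the iBmp2fx/fx cells at 6, 24, 48 and 72 h. The iBmp2ko/ko cells had 400, 453 and 255 CPM at 6, 48 and 72 h, and 268 CPM in the library of 24 h. The iBmp2ko/ko library was the higher of the pair at 6, 48 and 72 h, but its lowest value lay below the iBmp2fx/fx value of 6 h. The means were 201 ± 61.4 and 369 ± 103 CPM (SD, n = 3). On the log2 scale the genotypes differed by 0.88 ± 0.29 (SE), under the limit of 1. Without the iBmp2fx/fx library of 6 h or the iBmp2ko/ko library of 72 h the difference was 1.12 or 1.06, past the unadjusted limit. The adjusted p of edgeR's test was 0.232.

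Ifih1 (chromosome 2, 62433850 to 62484312, minus strand), the sensor of long double-stranded RNA, had 49.7, 54.4, 21.0 and 21.4 CPM in the iBmp2fx/fx cells at the 4 times. In the iBmp2ko/ko cells it had 109, 113 and 55.7 CPM at 6, 48 and 72 h, each above all iBmp2fx/fx libraries, and 50.8 CPM at 24 h. The rise was 1.60 ± 0.41 (SE) on the log2 scale, past the unadjusted limit but with an adjusted p of 0.127 in edgeR's quasi-likelihood test.

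Dhx58 (chromosome 11, 100556018 to 100565585, minus strand) had the largest ratio of 6 h to 72 h in both genotypes. The iBmp2fx/fx libraries had 77.7, 98.8, 41.2 and 24.1 CPM at 6, 24, 48 and 72 h. The iBmp2ko/ko libraries had 181, 216 and 52.1 CPM at 6, 48 and 72 h, and 77.4 CPM at 24 h. The value at 72 h in the iBmp2ko/ko cells lay below the iBmp2fx/fx value at 6 h, so the groups overlapped, although the iBmp2ko/ko library was 2.33-, 5.24- and 2.16-fold higher at 6, 48 and 72 h. On the log2 scale it rose by 1.66 ± 0.58 (SE), past the unadjusted limit, with an adjusted p of 0.260 in edgeR's test. The unadjusted call was lost when the library of 6 h or 48 h of the iBmp2ko/ko cells, or that of 48 h or 72 h of the iBmp2fx/fx cells, was left out, with log2 fold changes of 1.51, 1.28, 1.56 and 1.34. In the annotation, 141 exonic bases of Dhx58, 4.08% of its length, are shared with Gm11547 on the opposite strand, and the strand setting of the counting is not given in the sources used here.

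Within a library, the ratio of Ifih1 to Ddx58 reads, which needs no scaling of the library, did not overlap between the genotypes over the 6 libraries. The share of other gene pairs whose ratio separates the genotypes was not counted, so this is a description. For every 100 reads of Ddx58 there were 18.3, 12.9 and 12.8 reads of Ifih1 in the iBmp2fx/fx cells at 6, 48 and 72 h. The iBmp2ko/ko cells had 27.2, 25.0 and 21.9 at these times, all above the iBmp2fx/fx range. At 24 h the ratio was 18.7 in the iBmp2fx/fx and 18.9 in the iBmp2ko/ko library. Dhx58 had 28.6, 25.3 and 14.4 reads per 100 of Ddx58 in the iBmp2fx/fx cells and 45.2, 47.6 and 20.5 in the iBmp2ko/ko cells at 6, 48 and 72 h, and these groups overlapped.

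Mavs (chromosome 2, 131059799 to 131073761, plus strand), the adaptor shared by RIG-I and MDA5, was the steadiest member. Its level lay between 47.4 and 59.0 CPM over all 8 libraries, a 1.24-fold range. In the iBmp2fx/fx cells it had 53.5, 49.0, 47.4 and 50.5 CPM at 6, 24, 48 and 72 h, and in the iBmp2ko/ko cells 57.5, 56.3, 56.4 and 59.0 CPM. Each iBmp2ko/ko library, that of 24 h included, was above every iBmp2fx/fx library, but the difference was small. The log2 difference was 0.20 ± 0.15 (SE, adjusted p = 0.657 in edgeR's test), and its 95% interval of -0.16 to 0.55 leaves out changes above 1.47-fold. From the counts, Ddx58 had 3.32 to 5.07 reads for each read of Mavs in the iBmp2fx/fx cells and 4.32 to 8.04 in the iBmp2ko/ko cells over the 6 libraries. At 24 h the ratio was 5.94 in the iBmp2fx/fx and 4.77 in the iBmp2ko/ko library.

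Nlrx1 (chromosome 9, 44060796 to 44076682, minus strand) had the lowest level per length of the 8 genes and the largest fold change in the test over 6 libraries. Zbp1 exceeded it without the iBmp2ko/ko library of 6 h (3.01 against 2.86 on the log2 scale) and with limma on log2 RPKM (2.52 against 2.48). Its read counts in the iBmp2fx/fx cells were 30, 15, 17 and 12 at 6, 24, 48 and 72 h. The iBmp2ko/ko libraries had 215, 174 and 83 reads at 6, 48 and 72 h, and 24 reads at 24 h. These counts correspond to 0.624 ± 0.303 CPM in the iBmp2fx/fx cells and 5.40 ± 2.07 CPM in the iBmp2ko/ko cells (SD, n = 3), without overlap. This is a rise of 3.11 ± 0.48 (SE) on the log2 scale, with an adjusted p of 0.0243 in edgeR's quasi-likelihood test. At 6, 48 and 72 h the ratio of the genotypes was 7.58, 10.8 and 8.36, and at 24 h it was 1.75. The adjusted call was lost when any 1 of 5 of the 6 libraries was left out, with adjusted p from 0.0510 to 0.152 in edgeR's test, and it held without the iBmp2ko/ko library of 72 h (adjusted p = 0.0143).

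Zbp1 (chromosome 2, 173032113 to 173044424, minus strand), the sensor of Z-form nucleic acid, showed the widest ratio at any single time. It had 14.6, 37.4, 9.59 and 7.86 CPM in the iBmp2fx/fx cells at 6, 24, 48 and 72 h. The iBmp2ko/ko cells had 44.0, 130 and 39.4 CPM at 6, 48 and 72 h, and 14.0 CPM at 24 h. The 3 iBmp2ko/ko libraries of the tested times were above all iBmp2fx/fx libraries, and the 48 h library was 13.6-fold above its iBmp2fx/fx partner. Its rise on the log2 scale was 2.74 ± 0.52 (SE, adjusted p = 0.0473 in edgeR's quasi-likelihood test). Without the iBmp2ko/ko library of 48 h it was 1.98 with an adjusted p of 0.0850 in that edgeR test. The adjusted call was also lost without the iBmp2ko/ko library of 6 h or without any 1 of the 3 iBmp2fx/fx libraries, with adjusted p from 0.0774 to 0.223.

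Tmem173 (chromosome 18, 35893332 to 35900208, minus strand), the adaptor of cytosolic DNA sensing, had 109, 79.0, 75.2 and 75.4 CPM in the iBmp2fx/fx cells at 6, 24, 48 and 72 h. The iBmp2ko/ko libraries had 117, 105, 100 and 75.2 CPM at the same times, so the library of 6 h lay above every iBmp2fx/fx library and that of 72 h level with the lowest of them. The log2 difference was 0.17 ± 0.22 (SE, adjusted p = 0.809 in edgeR's test), and its 95% interval of -0.35 to 0.69 leaves out rises above 1.62-fold.

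Tlr3 (chromosome 8, 46481019 to 46495962, minus strand), the endosomal receptor, had 17.8, 19.4, 9.69 and 6.996 CPM in the iBmp2fx/fx cells at the 4 times. In the iBmp2ko/ko cells it had 38.7, 55.3 and 15.4 CPM at 6, 48 and 72 h, and 18.8 CPM at 24 h. The iBmp2ko/ko value of 72 h lay below the iBmp2fx/fx value of 6 h. The log2 rise was 1.67 ± 0.51 (SE), past the unadjusted limit, with an adjusted p of 0.198 in edgeR's test. Without the iBmp2ko/ko library of 48 h it was 1.24 and the unadjusted call was lost. Without that of 72 h it was 2.01 with an adjusted p of 0.0424 in edgeR's test.

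**Figure D2:**
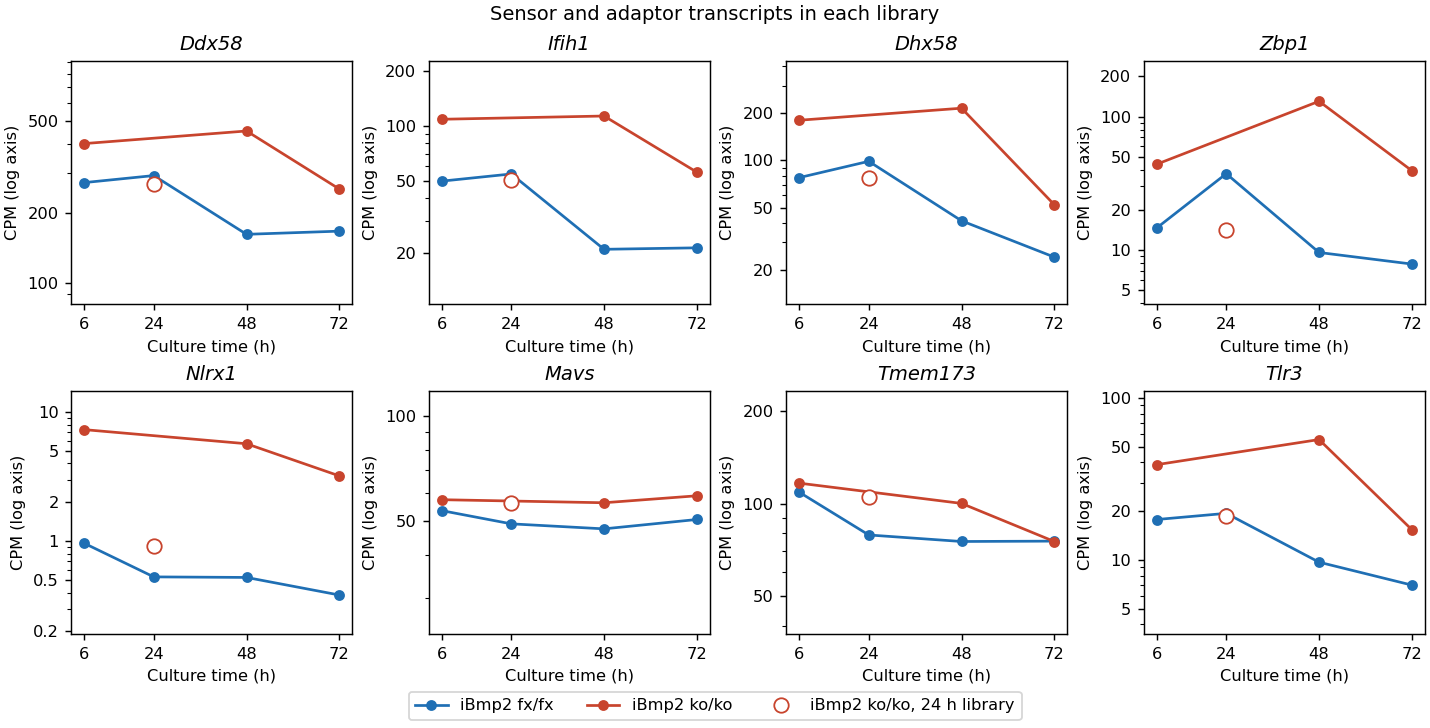
CPM of each transcript (y axis, log scale with its own range in each panel) against culture time in hours, 1 point per library. Filled points are joined within a genotype and the open circle is the iBmp2ko/ko library of 24 h, which for Ifih1, Zbp1, Nlrx1 and Mavs lies below every other iBmp2ko/ko library.

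Compared per length, in RPKM, the order of the levels differed between the genotypes. In the iBmp2fx/fx cells Tmem173 had 37.6 ± 8.42 RPKM and Ddx58 28.5 ± 8.71 RPKM (SD, n = 3), with overlapping libraries. Mavs followed with 15.1 ± 0.908 RPKM, below all Ddx58 libraries, then Dhx58 with 13.8 ± 7.93, Ifih1 with 5.57 ± 2.98, Zbp1 with 3.03 ± 0.997 and Tlr3 with 2.61 ± 1.27 RPKM. From Mavs to Tlr3 each gene overlapped the next in this order, and Nlrx1, with 0.157 ± 0.0762 RPKM, lay below all of them. In the iBmp2ko/ko cells Ddx58 led with 52.4 ± 14.6 RPKM, before Dhx58 with 43.3 ± 25.0 and Tmem173 with 42.3 ± 9.04 RPKM. Zbp1 stood at 20.2 ± 14.5 RPKM, next to Mavs at 17.2 ± 0.398 and Ifih1 at 16.8 ± 5.78 RPKM. Tlr3 had 8.29 ± 4.56 RPKM, and all neighbours down to it overlapped, while Nlrx1 was again separate at 1.36 ± 0.520 RPKM.

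At single culture times, with 1 library per genotype and no test, the difference was widest at 48 h. At 6 h, 5 of the 8 genes were more than 2-fold higher in the iBmp2ko/ko library, against 5.51% of all genes tested. At 48 h this held for 6 of the 8, Ddx58 included, against 5.77% of all genes, and at 72 h for 5 of the 8, against 4.37%. The ratios at 48 h were 2.79 for Ddx58, 5.38 for Ifih1, 5.24 for Dhx58, 13.6 for Zbp1, 10.8 for Nlrx1 and 5.71 for Tlr3. At this time the iBmp2fx/fx values of Ddx58, Ifih1, Dhx58, Zbp1 and Tlr3 were below those of 6 h, whereas the iBmp2ko/ko values of these genes were above those of 6 h.

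**Figure D3:**
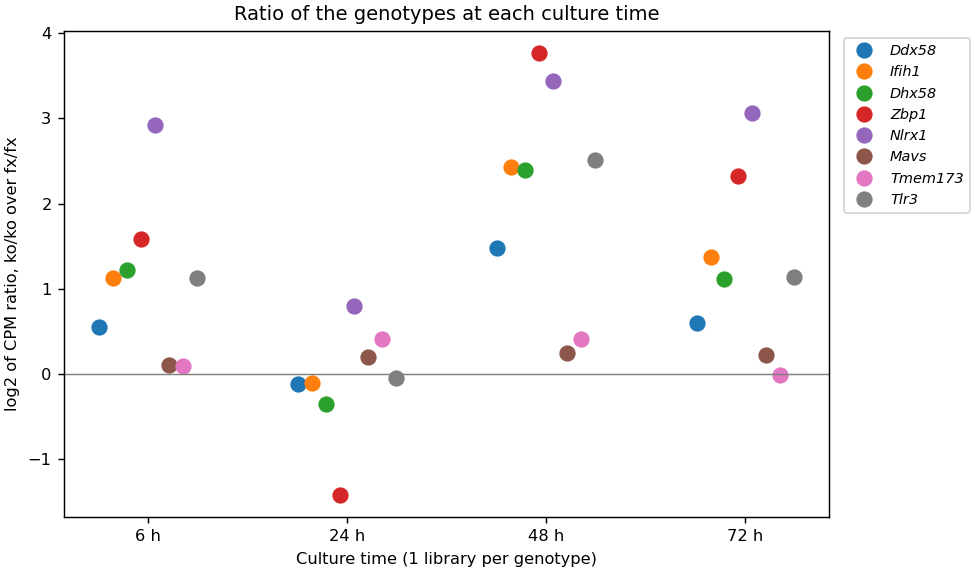
Log2 ratio of CPM in the iBmp2ko/ko over the iBmp2fx/fx library (y axis) for each sensor or adaptor at each culture time, 1 library per genotype. Ddx58, Ifih1, Dhx58, Zbp1 and Tlr3 are above 0 at 6, 48 and 72 h and below 0 at 24 h.

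At 24 h the ratios of the genotypes differed from those at the other times for most of the 8 genes. With 1 library per genotype at this time, an effect of culture time and a trait of either library, its genotype label included, cannot be told apart. The iBmp2ko/ko library was below the iBmp2fx/fx library for Ddx58 (0.92-fold), Ifih1 (0.93-fold), Dhx58 (0.78-fold), Zbp1 (0.38-fold) and Tlr3 (0.97-fold). It was above for Nlrx1 (1.75-fold), Tmem173 (1.33-fold, as at 48 h) and Mavs (1.15-fold). Zbp1 was the 1 member more than 2-fold lower, by a factor of 2.66, and 3.15% of all genes were more than 2-fold lower. The iBmp2ko/ko library of 24 h lay within the range of the iBmp2fx/fx libraries of the other times for 5 of the 8 genes, against 63.5% of all genes tested, and within that of the 3 other iBmp2ko/ko libraries for 4, Ddx58, Dhx58, Tmem173 and Tlr3, against 55.6%. It was below all 3 of these for the other 4, Ifih1, Zbp1, Nlrx1 and Mavs. With the 24 h pair included, 4 of the 8 passed the unadjusted limit of edgeR's test, Ifih1, Zbp1, Nlrx1 and Tlr3, against 2.08% of all genes. At the adjusted limit 0 of the 8 passed in that edgeR fit, as did 0 of all genes, while 463 of all genes passed the unadjusted limit. The log2 fold changes in that fit were 0.62 for Ddx58, 1.15 for Ifih1, 1.11 for Dhx58, 1.71 for Zbp1, 2.82 for Nlrx1, 0.19 for Mavs, 0.22 for Tmem173 and 1.24 for Tlr3. With the block, 0 of the 8 passed the adjusted limit over 8 libraries, against 0.0613% of all genes called higher in that edgeR fit. With the iBmp2fx/fx library of 24 h added but not that of the iBmp2ko/ko cells, 5 passed the unadjusted limit, against 3.47% of all genes called higher. In that fit Nlrx1 alone of the 8 passed the adjusted limit, against 1.3% of all genes, at 3.15 on the log2 scale (adjusted p = 0.00543 in edgeR's test).

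Over culture time, every member but Mavs was lower at 72 h than at 6 h in both genotypes, without passing the adjusted limit. The share of all genes that were lower in this way was not counted, so this is a description. The value at 6 h was 3.22-fold that at 72 h for Dhx58 in the iBmp2fx/fx cells and 3.47-fold in the iBmp2ko/ko cells, 2.54- and 2.52-fold for Tlr3, 2.32- and 1.95-fold for Ifih1 and 1.62- and 1.57-fold for Ddx58. For Nlrx1 the ratios were 2.52 and 2.28, and for Tmem173 1.44 and 1.55. Zbp1 had 1.86 and only 1.12, and its iBmp2ko/ko value at 48 h was 2.96-fold that at 6 h. Mavs stayed level, with ratios of 1.06 and 0.975. In edgeR's test of a trend with the log2 of culture time over the 6 libraries, 0 of the 8 passed an adjusted p of 0.05, and 0% of the 13121 genes were called lower with time. At an unadjusted p under 0.05, 3 of the 8 did, Ifih1, Nlrx1 and Tmem173, beside 2775 of all genes. Their slopes were -0.25, -0.28 and -0.13 on the log2 scale for each doubling of time. The interaction of genotype and time passed the adjusted limit for 0 of the 8 and for 0 of all genes in edgeR's test. At an unadjusted p under 0.05 it did so for 0 of the 8 and 63 of all genes. With so few libraries this test had little power, so it cannot show that the genotype difference stayed the same over time.

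The 8 genes lie on 6 chromosomes, Ifih1, Zbp1 and Mavs on chromosome 2. The median log2 fold change of all genes tested was -0.02 on chromosome 2, and over the 6 chromosomes it lay between -0.02 and 0.18. The highest of these medians, 0.18, was that of chromosome 18, which carries Tmem173, whose own value was 0.17.

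The remaining genes of the pathways were taken from 5 lists, of which 108 of 127 genes were tested. Among 36 regulators and signaling proteins downstream of the RIG-I-like receptors, 1 rose and 2 fell at the unadjusted limit, against 3.31% and 4.04% of all genes, and 33 passed no limit. The median log2 fold change of this list was 0.07. The 2 that fell also passed the adjusted limit, against 1.29% of all genes that did so in this direction. Irf5, an interferon regulatory transcription factor, fell from 62.1 ± 14.0 to 20.8 ± 6.61 CPM (SD, n = 3, log2 fold change -1.57, adjusted p = 0.0348 in edgeR's test). Tbkbp1, a protein that binds the kinase TBK1, fell from 9.91 ± 2.50 to 2.51 ± 1.03 CPM (log2 fold change -1.97, adjusted p = 0.0488 in edgeR's test, n = 3). Both lost this call when any 1 of the 6 libraries was left out, with adjusted p from 0.0515 to 0.127 for Irf5 and from 0.0520 to 0.192 for Tbkbp1. At 24 h Irf5 was 1.55-fold higher in the iBmp2ko/ko library, and Tbkbp1 was higher there too. Irf7, the interferon-induced regulatory factor, rose at the unadjusted limit (by 1.53 ± 0.64, SE, on the log2 scale, adjusted p = 0.343 in edgeR's test), but at 24 h it had 291 CPM in the iBmp2fx/fx and 207 CPM in the iBmp2ko/ko library. The kinase Tbk1 and the factor Irf3, which carry the signal from Mavs, had log2 fold changes of 0.28 and 0.33 and adjusted p of 0.566 and 0.620 in edgeR's test.

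In the list of cytosolic DNA sensing and nucleic acid clearance, 4 of 28 genes rose at the unadjusted limit and none fell, against 3.31% and 4.04% of all genes. Aim2, the inflammasome sensor of cytosolic DNA, had 4, 2, 5 and 7 reads in the iBmp2fx/fx libraries of 6, 24, 48 and 72 h and 62, 63 and 61 reads in the iBmp2ko/ko libraries of 6, 48 and 72 h, but 3 reads in that of 24 h. Aim2 passed the filter on low counts only through the iBmp2ko/ko libraries, where it is high, so its call, and its place in the count of 4, is a description and not support for a difference. It was not tested over 8 libraries. The fitted log2 difference was 3.66 ± 0.40 (SE, adjusted p = 0.0111 in edgeR's test). This call was lost without the iBmp2fx/fx or the iBmp2ko/ko library of 48 h (adjusted p = 0.0746 and 0.0712 in edgeR's test). The others were Mndal, Ifi205 and Ifi203, similar paralogs between which reads may be uncertain, with log2 fold changes of 1.71, 1.62 and 1.34. At 24 h these 3 were lower in the iBmp2ko/ko library, with ratios of 0.832, 0.532 and 0.877. The DNA sensor cGAS, listed as E330016A19Rik, differed by 0.19 on the log2 scale (adjusted p = 0.760 in edgeR's test).

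Of 20 tested genes for other proteins that recognize double-stranded or viral RNA, 6 rose at the unadjusted limit and none fell, against 3.31% and 4.04% of all genes. The median log2 fold change of this list was 0.78. Oas2, an oligoadenylate synthetase activated by double-stranded RNA, rose from 50.2 ± 25.8 to 290 ± 143 CPM (SD, n = 3) and passed the adjusted limit, with a log2 rise of 2.55 (adjusted p = 0.0496 in edgeR's test). That call was lost without any 1 of 5 libraries, with adjusted p from 0.0742 to 0.223, the exception being the iBmp2ko/ko library of 72 h. At 24 h Oas2 had 128 CPM in the iBmp2fx/fx and 76.6 CPM in the iBmp2ko/ko library, and adding the former to the fit also ended the call (adjusted p = 0.0784 in edgeR's test). Oas3 is a synthetase of the same family, and Ifit1 and Ifit3 are interferon-induced proteins of another. Ifit3, Oas3 and Ifit1 had log2 fold changes of 3.40, 2.60 and 2.04 and adjusted p of 0.207, 0.275 and 0.256 in edgeR's test. Their ratios at 24 h were 0.887, 0.914 and 1.11. In the endosomal Toll-like receptor list, 0 of 8 tested genes passed a limit in edgeR's test with or without the block.

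Among 16 tested genes of interferons, their receptors and their signaling, 4 passed the unadjusted limit upwards, against 3.31% of all genes, and none the adjusted limit of edgeR's test, against 0.899%. Isg15, an interferon-induced protein modifier, rose by 1.86 on the log2 scale, with an adjusted p of 0.107 in edgeR's test. Usp18, a negative regulator of the receptor, was a further one, with an adjusted p of 0.275 in that test. At 24 h the iBmp2ko/ko library was below the iBmp2fx/fx library for both, 0.790-fold for Isg15 and 0.978-fold for Usp18. The interferon genes themselves were hardly read. Ifnb1 had 2, 2, 0 and 0 reads in the iBmp2fx/fx libraries of 6, 24, 48 and 72 h and 3, 2, 9 and 2 in the iBmp2ko/ko libraries, and Ifna1 and Ifna2 had 0 reads in every library. In the blocked test, 15 of the 108 genes of the 5 lists rose and 2 fell at the adjusted limit, against 3.78% and 4.67% of all genes. The 15 include Aim2, whose place in this count is again a description.

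**Figure D4:**
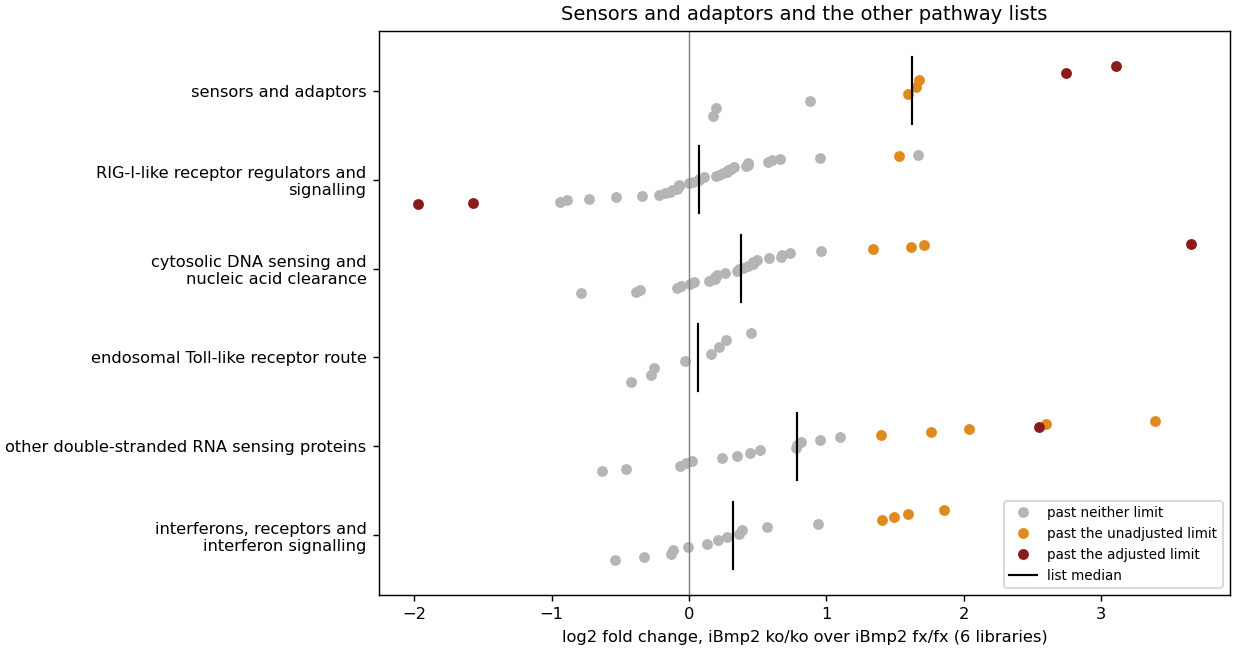
Log2 fold change over the 6 libraries (x axis) of each tested gene, 1 point per gene, in the sensors and adaptors and in the 5 other lists (y axis), colored by the limit passed in edgeR's quasi-likelihood test, with the list median as a vertical line. The median is 1.63 for the sensors and adaptors, 0.78 for other double-stranded RNA sensing proteins and 0.07 for the regulators of RIG-I-like receptor signaling.

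The transcripts outside the 8 with the profile nearest to the mean of Ddx58, Ifih1 and Dhx58 over the 8 libraries were Parp12, Slfn8, Xaf1, Nmi and Samd9l. Their root mean square difference from that mean, on centred log2 CPM, was 0.123, 0.134, 0.145, 0.150 and 0.151, where the median of 13045 ranked genes was 0.806. By the same measure Tlr3 was at 0.185, while Tmem173, Mavs, Zbp1 and Nlrx1 were at 0.610, 0.701, 0.713 and 0.967. At 48 h the 5 transcripts were 3.45- to 5.48-fold higher in the iBmp2ko/ko library, and at 24 h their ratios were 0.824 to 1.13. Since the 5 were chosen by their profile over these same libraries, such ratios follow from the choice and are a description.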

How the data were processed

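Total RNA libraries of iBmp2fx/fx and iBmp2ko/ko cells were sequenced, 1 per genotype at 6, 24, 48 and 72 h. Reads were single-end per the labels. The submitters' design text gives 8 h in place of the 6 h of the labels. Per the labels, the authors used CASAVA 1.8.2, aligned to mm9 with TopHat2 2.0.8b and deposited raw HTSeq counts per gene symbol; the annotation and strand setting are not given in the sources used here. The 5 HTSeq counter rows were left out, and the lncRNA tables were not used. These rows hold 52.0 to 55.1% of the total in the iBmp2fx/fx libraries and 55.4 to 59.0% in the iBmp2ko/ko libraries. The part of this difference in the results was not tested. The members and gene lists were chosen with earlier results of these data known.

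Genotypes were compared with edgeR 4.0.16 in R 4.3.3, using TMM factors, filterByExpr (minimum count 10, minimum total 15) and quasi-likelihood tests, adjusted by Benjamini-Hochberg over all genes. Standard errors are the log2 fold change divided by the root of the F statistic. The culture times stand in for replicates, so changes over time enter the error and p-values measure only the spread between these libraries. Deviations of libraries of 1 culture time from their genotype mean were correlated across genes at 0.715, 0.537 and 0.837 for 6, 48 and 72 h, so culture time was also used as a block. With the 24 h pair included, its own correlation was -0.29. RPKM used exon lengths of GENCODE M1 (mm9), and CPM the reads counted on genes. Named genes were Bmp2, the 8 members, and in each list the genes past the adjusted limit plus up to 3 with the largest change past the unadjusted limit, and the 5 nearest profiles. Of the genes that this rule names, 1 is not reported here. cGAS, Tbk1, Irf3, Ifnb1, Ifna1 and Ifna2 were named after their values were seen. DESeq2 1.42.0, limma 3.58.1, other scalings and filters and leaving out each library were the alternatives. The tests were tried on simulated data. Figures were drawn with matplotlib 3.10.9.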

Additional observations from a re-analysis of the deposited data

Results flagged for a closer look

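The level of Tmem173 in the iBmp2fx/fx library of 6 h, 109 CPM, stood apart from the 3 other iBmp2fx/fx libraries, with a gap to the nearest of 0.888 of the whole range. Of 16 groups of 4 libraries examined in this way, 2 for each of the 8 genes, this was the only one past Dixon's critical value, and chance gives about 1 in 20.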

How the results depend on the processing

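All 8 log2 fold changes stayed above 0 under the 17 alternatives to the genotype test. Their size moved, with ranges of 0.62 to 1.12 for Ddx58, 1.15 to 2.08 for Ifih1, 1.10 to 2.15 for Dhx58, 1.68 to 3.01 for Zbp1, 2.48 to 3.52 for Nlrx1, 0.13 to 0.23 for Mavs, 0.06 to 0.33 for Tmem173 and 1.17 to 2.08 for Tlr3. The lowest values of Zbp1 and Dhx58, 1.68 and 1.10, came with the block over 8 libraries. The number of members past the adjusted limit was 2 in the test without a block over 6 libraries, where 287 of 13121 genes passed in either direction. It was 0 over all 8 libraries (0 genes in all), 1 over 7 libraries without the 24 h library of the iBmp2ko/ko cells (412 genes), 5 with culture time as the replicate block over 6 libraries (1109 genes) and 0 with the replicate block over 8 (33 genes). DESeq2 gave 4, Ifih1, Zbp1, Nlrx1 and Tlr3, and called 659 genes in all. Limma on log2 RPKM (273 genes), library sizes without TMM (276 genes) and at least 10 counts in every library (144 of 12159 genes) gave 1 each, which was Nlrx1. Leaving out each library gave 0 to 3. The 3 were Zbp1, Nlrx1 and Tlr3 without the iBmp2ko/ko library of 72 h, where 378 genes passed, and the 5 fits that gave 0 called 9 to 159 genes. At the unadjusted limit, 5 members passed in the main test, where 964 of 13121 genes passed in either direction. When a library was left out, 3 to 6 members passed, and 781 to 1343 of all genes did so.

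For the 5 other lists, 4 genes passed the adjusted limit. In the same fits the number was 0 over 8 libraries with or without the block, 17 with the block over 6, 10 with DESeq2, 2 without TMM, 2 with upper quartile scaling (278 genes in all), 0 with at least 10 counts in every library, and 0 to 8 when a library was left out. Aim2 did not pass the filter on low counts over 8 libraries or at 10 counts in every library and was not tested there. Where Aim2 was called, as among the 4 and the 17, its place in the count is a description. The trend with culture time passed for 0 members, and for 0 to 1 when a library was left out, the 1 being Dhx58 without the iBmp2ko/ko library of 48 h (adjusted p = 0.0410 in edgeR's test), where 196 of 13316 genes passed, against 0 in the 5 other such fits. Where no value shows it, the cause was not tested. Nlrx1 and Aim2 rest on few reads in the iBmp2fx/fx cells.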
